A study of Mus musculus with 12 samples.

Results

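The genes of the hair cell mechanotransduction complex were examined in RNA-seq of the mouse cochlea at postnatal day (P) 6, after the Notch ligand JAG1 had been deleted. They are the 7 rows of the count table with the symbols Tmc1, Tmc2, Tmie, Lhfpl5, Cib2, Pcdh15 and Cdh23, of 28686 symbols in all, and they were chosen by name. All 7 passed the filter on low counts, a mean of 5 or more across the libraries, and were tested among 18459 genes. The mutants were 6 Sox2CreER/+ Jag1 fl/fl pups and the controls were 6 Sox2+/+ littermates, which carry no CreER. By the paper's methods, the name Sox2+/+ covers both Jag1 +/fl and Jag1 fl/fl mice. Which of them each control was is not given in the sources used here. The pups were given tamoxifen at P0 and P1, and the labels name C57BL/6;129SV as their strain. The paper's methods differ, with a C57bl6/J background for the Sox2CreER line and FVB/n for the Jag1 flox line. The Sox2CreER allele puts a tamoxifen-activated recombinase under the control of Sox2, which is active in supporting cells at these ages, so the deletion is aimed at the neighbours of the hair cells and not at the hair cells themselves. The mutants have only 1 intact copy of Sox2, so the effects of that allele and of the loss of Jag1 cannot be told apart.

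Hair cells turn sound into an electrical signal at the tips of their stereocilia. A filament called the tip link joins each stereocilium to its taller neighbour. CDH23 forms the upper end of the tip link and PCDH15 the lower end, where it meets the transduction channel. TMC1 and TMC2 form the pore of the channel, TMIE and LHFPL5 are membrane proteins that join them to PCDH15, and CIB2 is a calcium-binding protein that holds on to the TMC proteins from inside the cell. In the mouse cochlea TMC2 is used early and gives way to TMC1 as the hair cells mature after birth. Loss of each of these proteins other than TMC2 causes deafness.

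None of the 7 genes passed the test between genotypes. By the quasi-likelihood test of edgeR 0 of 7 had an adjusted p under 0.05, beside 0.19% of all genes tested, and 0 of 7 had an unadjusted p under 0.05, beside 10.6%. DESeq2 and limma-voom also gave 0 of 7 at an adjusted p under 0.05, beside 3.35% and 0.103% of all genes tested. At an unadjusted p under 0.05 both gave 0 of 7, beside 1988 and 1855 of the 18459 genes. The median log2 fold change of the 7 was 0.01, and that of all genes tested was 0.003. In none of the 7 did the mutant values lie apart from the control values, which was the case for 0.997% of all genes tested. Levels are given in CPM, the share of a library's counts scaled to a fixed total with its TMM factor.

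Before the single genes, the libraries need a short account. Total counts lay between 28498549 and 36134983. Jag1 was lower in every mutant, at 24.2 to 42.9 CPM beside 83.0 to 117.6 CPM in the controls (edgeR, log2 fold change -1.48, adjusted p = 0.000258), so that the labels hold for all 12 libraries. Transcripts of 12 hair cell markers were detected in every library, and their summed level was 476 to 535 CPM in controls and 441 to 575 CPM in mutants. Of these, 0 of 12 had an unadjusted p under 0.05 by edgeR, beside 10.6% of all genes tested. Of 12 neuron markers, 11 had an unadjusted p under 0.05, all higher in mutants, beside 6.52% of all genes tested. The summed level of the 12 was 101 to 248 CPM in controls and 137 to 1294 CPM in mutants. Of 8 Schwann cell markers, 7 had an unadjusted p under 0.05, all higher in mutants, beside the same 6.52%. The summed level of the 8 was 402 to 1329 CPM in controls and 1095 to 5886 CPM in mutants. Markers of a list are measured in the same 12 libraries, so such a count is not of separate findings. None of these markers was at 0 in any library, and none passed the adjusted test, beside 0.19% of all genes tested. In whole-tissue RNA, fewer cells of a type and less RNA per cell cannot be told apart. The part of both marker lists in the values below was not tested. In a fit with both scores as covariates only 1 of all genes tested was called, so it could say little of the 7; there the log2 fold change was 0.25 for Tmc1, -0.32 for Tmc2 and 0.38 for Cdh23, beside -0.09, 0.12 and 0.05 without them (edgeR, adjusted p = 0.999996 for each of the 3 with the scores).

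Tmc1 (GRCm38 chr19:20783458-20954202, minus strand) encodes the mature pore subunit. In controls its lowest, median and highest levels were 7.77, 10.8 and 11.7 CPM. In mutants they were 6.56, 9.63 and 13.8 CPM. The mutants held both the lowest and the highest of the 12 values, in mutant 1 and mutant 4, and 1 of 6 mutants lay above the control median. The difference on the log2 scale was -0.09 ± 0.16 (SE, n = 6 per genotype; edgeR, adjusted p = 0.927), with a 95% interval from -0.44 to 0.26, and the exact two-sided permutation test gave p = 0.526. A change of Tmc1 to 0.737 or to 1.20 times the control level therefore marks the ends of what these mice allow.

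Tmc2 (chr2:130195194-130264445, plus strand) encodes the early pore subunit and was the scarcest of the 7. It lies on the same chromosome as Jag1, 6.817 Mb away. Its level in controls was 0.218 to 0.952 CPM with a median of 0.638 CPM, and in mutants 0.399 to 0.793 CPM with a median of 0.766 CPM. These levels rest on 7 to 32 counts per library, 121 in all controls together and 141 in all mutants. The lowest library, control 4, had 7 counts with a 95% exact Poisson interval from 2.81 to 14.4, and the highest, control 2, had 32 counts with an interval from 21.9 to 45.2. These intervals cover counting error only. Mutants differed by 0.12 ± 0.30 (SE, log2 fold change, n = 6 per genotype; edgeR, adjusted p = 0.952), and its interval, from -0.52 to 0.76, was the widest of the 7. Without control 4 this value was -0.06.

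Reads of the pore subunits can be told apart. The longest run of bases that transcripts of both genes share is 22 nt, far below the read length of 100 nt, and it is shown because the split of the counts between Tmc1 and Tmc2 rests on it. It lies in coding sequence across the junction of exons 16 and 17 of 21 in Tmc1 (chr19:20799226-20804606, minus strand, GRCm38) and of exons 15 and 16 of 20 in Tmc2 (chr2:130247975-130248635, plus strand), counted in GENCODE M21, and reads in the direction of the transcript:
Tmc1 and Tmc2: atgatctggatgggctccttct

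The balance of the subunits was measured as a ratio within each library. Tmc1 had more counts than Tmc2 in all 12 libraries. The ratio of Tmc1 to Tmc2 was 8.16 to 53.4 in controls, with a median of 15.9, and 9.27 to 18.1 in mutants, with a median of 14.9. The value of 53.4 belongs to control 4, the library with 7 Tmc2 counts, and the mutant values all lay inside the range of the controls. Per kilobase of exon the medians were 7.10 and 6.67. These depend on the length used. In controls the mean level of Tmc1 was 1.42 CPM per kilobase by all exons and 2.51 by the longest transcript, and that of Tmc2 was 0.196 by both. The mean log2 ratio was 3.91 ± 0.79 (SD, n = 6) in controls and 3.61 ± 0.34 (SD, n = 6) in mutants. The difference of -0.29 did not exceed the spread between mice (exact two-sided permutation test, p = 0.455, adjusted over the 2 ratios tested 0.742). Without control 4 the difference was -0.03.

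**Figure D1:**
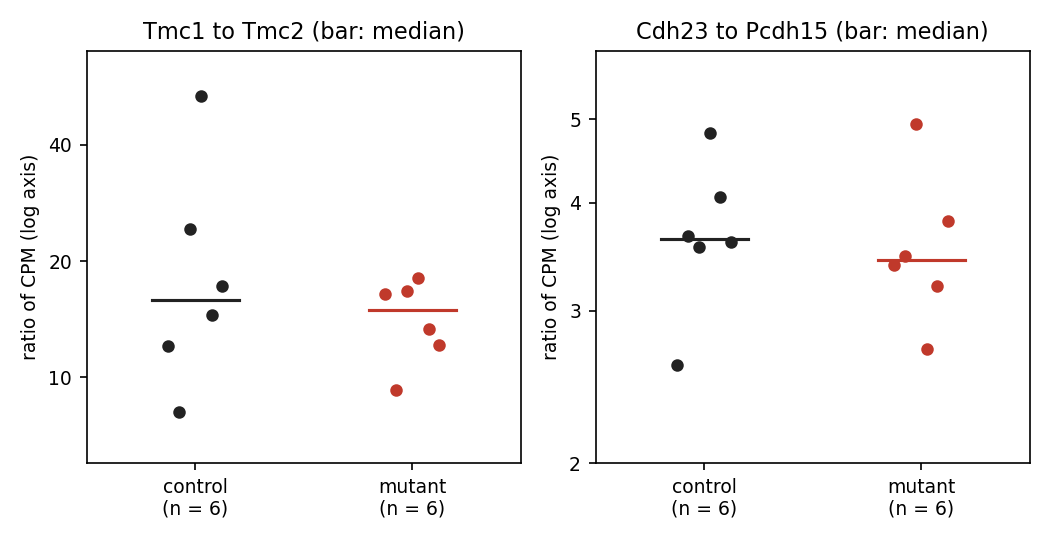
Ratio of the CPM of 2 genes in each library, on log axes, for Tmc1 to Tmc2 on the left and Cdh23 to Pcdh15 on the right. Points are mice and bars are medians. The ratios overlap between genotypes, and the highest Tmc1 to Tmc2 ratio, 53.4, belongs to a control.

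Tmie (chr9:110865711-110880113, minus strand) encodes a small membrane protein that the channel needs in order to open. Its levels were 22.3, 24.6 and 26.1 CPM in controls (lowest, median and highest) and 18.6, 23.2 and 25.8 CPM in mutants. Mutant 4 was the lowest of the 12, and 1 of 6 mutants lay above the control median. The log2 fold change was -0.12 ± 0.08 (SE, n = 6 per genotype; edgeR, adjusted p = 0.689; exact permutation p = 0.121), with an interval from -0.28 to 0.05. Of all genes tested, 58.6% had a smaller one in size. Tmie was measured with the smallest error of the 7, and a fall to less than 0.822 times the control level lies outside the interval.

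Lhfpl5 (chr17:28575641-28585679, plus strand), whose product binds PCDH15 and steers it to the channel, had one of the narrower ranges of the 7. Controls had 4.92, 6.29 and 6.89 CPM and mutants 5.28, 6.27 and 6.93 CPM. The medians were nearly equal, and 3 of 6 mutants lay above that of the controls. A log2 fold change of 0.01 ± 0.10 (SE, n = 6 per genotype; edgeR, adjusted p = 0.988; exact permutation p = 0.814) was found, with an interval from -0.20 to 0.23.

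Cib2 (chr9:54544794-54560218, minus strand) had the highest level of the 7. In controls it was 28.1, 31.8 and 37.7 CPM and in mutants 25.1, 32.8 and 39.5 CPM. The highest and the lowest of the 12 values were both mutants, mutant 1 and mutant 2. Its log2 fold change was -0.003 ± 0.098 (SE, n = 6 per genotype; edgeR, adjusted p = 0.998; exact permutation p = 0.924), with an interval from -0.21 to 0.21. CIB2 is made in many cell types, so in whole tissue its level is not that of hair cells alone.

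Tmie and Cib2 share bases with a gene on the opposite strand. Tmie shares 244 exon bases, 7.89% of its own, with Als2cl, and Cib2 shares 227, 15.8% of its own, with Sh2d7. Whether the counting used strand is not given in the sources used here. Als2cl had 1667 to 2995 counts per library, beside 635 to 862 for Tmie. Sh2d7 had 0 to 6, beside 826 to 1289 for Cib2. The part of the shared bases in these counts was not tested. For reads of 100 nt, 4.84% of the possible positions in Tmie and 9.6% of those in Cib2 also match the partner, and in the other 5 genes the share was 0.

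Pcdh15 (chr10:73099342-74649737, plus strand) encodes the lower strand of the tip link. Its levels were 5.52, 7.53 and 9.52 CPM in controls and 4.08, 7.99 and 10.2 CPM in mutants. Mutant 1 was the lowest of the 12 and mutant 4 the highest. The log2 fold change was 0.07 ± 0.18 (SE, n = 6 per genotype; edgeR, adjusted p = 0.955; exact permutation p = 0.879), with an interval from -0.32 to 0.46. It was 0.20 without mutant 1 (adjusted p = 0.524) and -0.03 without mutant 4 (adjusted p = 0.992), both by edgeR.

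Cdh23 (chr10:60302748-60696490, minus strand) encodes the upper strand of the tip link. Controls lay close together, at 24.7, 26.4 and 28.6 CPM. Mutants ran from 13.8 to 41.1 CPM with a median of 27.8 CPM. Mutant 1 was the lowest of the 12 and mutant 3 the highest, and the other 4 mutants, at 26.5 to 28.2 CPM, lay inside the range of the controls. The coefficient of variation was 5.43% in controls and 31.4% in mutants, and this difference in spread was not tested. Its log2 fold change was 0.05 ± 0.18 (SE, n = 6 per genotype; edgeR, adjusted p = 0.969; exact permutation p = 0.948), with an interval from -0.33 to 0.43. The difference of the mean log2 levels in the permutation test was -0.02, of the opposite sign. The edgeR fold change was 0.19 without mutant 1 (adjusted p = 0.431) and -0.10 without mutant 3 (adjusted p = 0.871). C57BL/6 mice carry an allele of Cdh23 that is tied to hearing loss with age, and which alleles each pup had is not given in the sources used here.

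**Figure D2:**
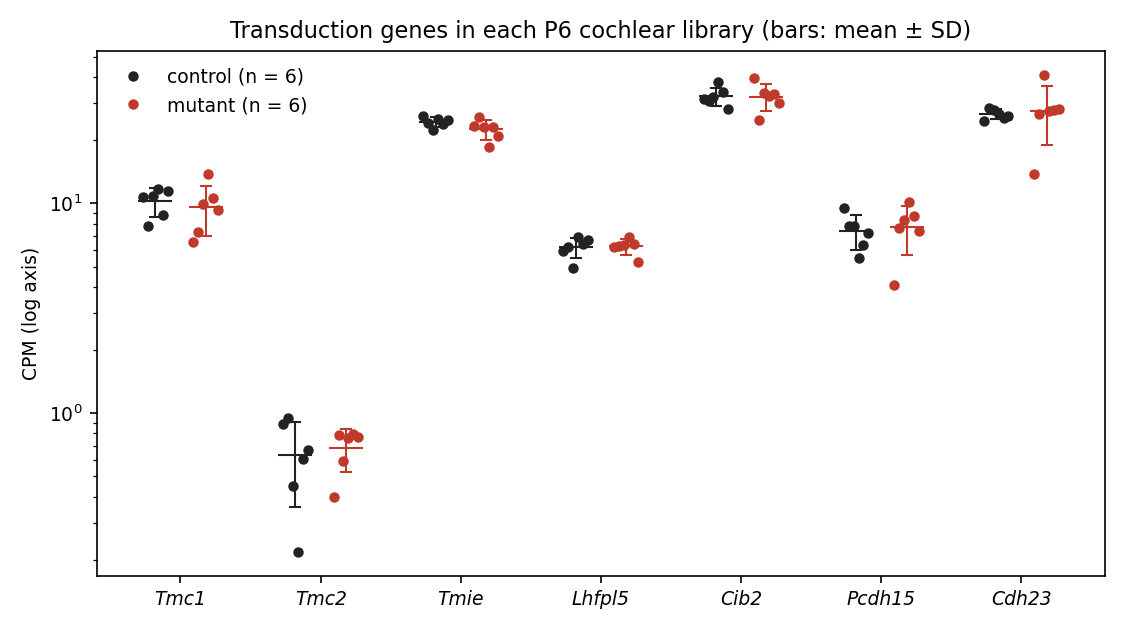
Level of each of the 7 genes in CPM, on a log axis, in the 6 control and 6 mutant libraries. Points are mice and the bars are the mean and SD. Control and mutant points overlap in every gene, Tmc2 lies under 1 CPM, and Cdh23 spreads from 13.8 to 41.1 CPM in mutants and from 24.7 to 28.6 CPM in controls.

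The strands of the tip link were also compared within each library. The ratio of Cdh23 to Pcdh15 counts was 2.60 to 4.82 in controls, with a median of 3.63, and 2.71 to 4.93 in mutants, with a median of 3.43. Cdh23 had more counts in all 12 libraries, and the ranges of the genotypes were nearly the same. The mean log2 ratio was 1.86 ± 0.29 (SD, n = 6) in controls and 1.80 ± 0.29 (SD, n = 6) in mutants, a difference of -0.05 (exact two-sided permutation test, p = 0.742, adjusted over the 2 ratios tested 0.742). Mutant 1 was the lowest of the 12 in both genes, and its ratio stayed inside the range of the controls.

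**Figure D3:**
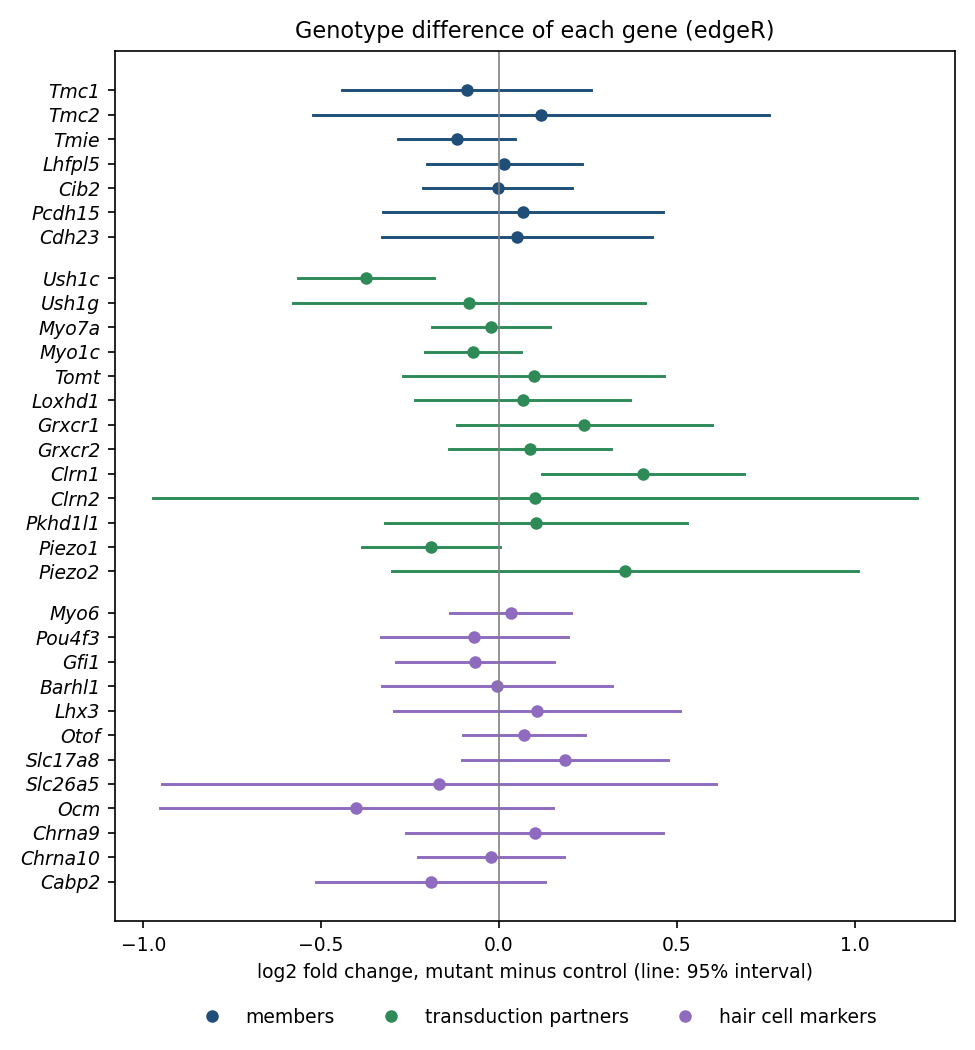
Log2 fold change of mutants over controls with its 95% interval from edgeR, for the 7 genes of the complex, 13 partners and 12 hair cell markers. The interval of each of the 7 genes spans 0, and Tmc2 has the widest of them, from -0.52 to 0.76.

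The order of the genes was set per length, as CPM per kilobase of exon sequence in GENCODE M21, since longer transcripts yield more reads. In controls the mean levels per kilobase were 22.6 for Cib2, 7.90 for Tmie and 2.58 for Lhfpl5. They were 1.57 for Cdh23, 1.42 for Tmc1, 0.310 for Pcdh15 and 0.196 for Tmc2. Each gene lay above the next in all 12 libraries, other than Cdh23, which was above Tmc1 in 7 of 12. The difference between those neighbours was not tested, and they changed places when the longest transcript, and not all exons, gave the length. The levels moved too, to 2.51 for Tmc1 and 0.810 for Pcdh15, while those of Cib2 and Tmc2 stayed the same. The mutant means per kilobase stood in the same order, from 22.5 for Cib2 to 0.213 for Tmc2. On this scale the RNA levels of the 7 genes ran over a wide range, with Cib2, Tmie and Lhfpl5 on top and Tmc2 at the bottom. This is an order of RNA in whole tissue, and not of the proteins or of hair cells alone.

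The 7 genes did not move as a set from mouse to mouse. After the mean of each genotype was subtracted, Pearson's r of log2 CPM over the 12 libraries was above 0 for 9 of the 21 pairs of genes, with a median of -0.04. The tip link pair, Pcdh15 and Cdh23, had the highest r, 0.69. Both were the lowest of the 12 in mutant 1, and r was not computed without that library. The value therefore cannot be read as a likeness of the pair across the other libraries. For Pcdh15 r was also high with Tmc2 (r = 0.68) and Tmc1 (r = 0.59), while Tmc1 and Tmc2 gave r = -0.04. The same limit holds there, since mutant 1 was the lowest of the 12 in Tmc1 and the second lowest in Tmc2. Tmc2 and Cib2 were the least alike, with r = -0.66. These values describe 12 libraries that share their depth and composition between genes, and they carry no test.

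**Figure D4:**
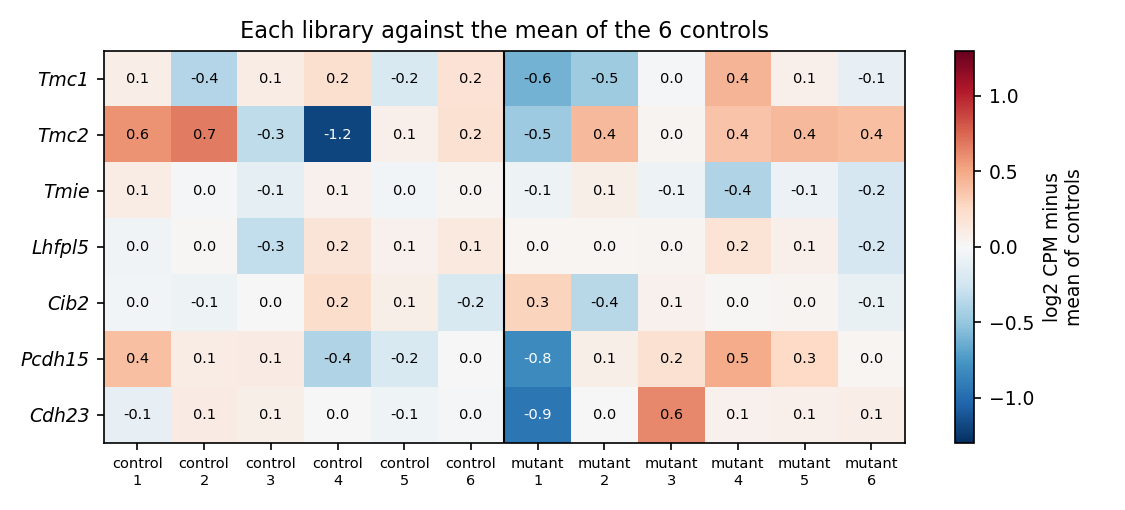
Level of each gene in each library as log2 CPM minus the mean of the 6 controls; red is higher and blue is lower. Mutant 1 is low in Tmc1, Tmc2, Pcdh15 and Cdh23 and high in Cib2, mutant 3 is high in Cdh23, and control 4 is low in Tmc2.

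Mutant 1 stood out in several of the genes. It was the lowest of the 12 in Tmc1, Pcdh15 and Cdh23, the second lowest in Tmc2 and the highest in Cib2. It also had the highest Schwann cell marker score of the 12 (mean log2 CPM 8.31, controls 4.04 to 6.25). Its neuron marker score was the second highest (4.83, controls 1.37 to 3.46). Its hair cell marker score of 3.36 was below the controls at 3.47 to 3.69. Mutant 2 had scores of 8.08, 4.75 and 3.28 in the same order, the last being the lowest of the 12. The Pcdh15 and Cdh23 levels of mutant 2 lay inside the range of the controls, and its Tmc1 level was the second lowest. In addition, mutant 1 had the least of long transcripts. The part of each of these in the levels of mutant 1 was not tested. When 14089 genes were put into 20 bins by the length of their longest transcript, the libraries differed in the median deviation of the longest bin (median 10208 nt) minus that of the shortest (median 857 nt). This balance was -0.64 on the log2 scale in mutant 1, the lowest of the 12, and 0.41 in mutant 2, the highest. It was -0.37 in control 4 and -0.36 in control 5. Cib2 has the shortest longest transcript of the 7, at 1433 nt, and was highest in mutant 1 and lowest in mutant 2. Lhfpl5, nearly as short at 1619 nt, was in the middle of the 12 in both, the fifth lowest in mutant 1 and the next in mutant 2. Cdh23 and Pcdh15 have the longest, at 11096 and 9104 nt.

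With this balance taken out, the spread was smaller in some genes and larger in others. In mutants the coefficient of variation went from 14.6% to 8.54% for Cib2, from 26.4% to 19.3% for Pcdh15 and from 31.4% to 27.2% for Cdh23. In controls it went from 10.0% to 5.46% for Cib2 and from 18.8% to 11.7% for Pcdh15, while that of Cdh23 went up from 5.43% to 11.8%. In mutants that of Lhfpl5 went up from 8.57% to 11.9%, that of Tmie from 10.99% to 11.3% and that of Tmc2 from 23.2% to 23.7%. The spread of Tmc1 in mutants was 26.8% before and 26.1% after. Mutant 1 then had 5.23 CPM of Pcdh15 and 18.1 CPM of Cdh23. With genes binned by GC content, the highest bin minus the lowest was 0.286 (log2) in mutant 1 and -0.259 to 0.313 in controls. With that taken out instead, the coefficient in mutants was 12.8% for Cib2, 24.7% for Pcdh15 and 24.8% for Tmc1, lower than uncorrected. It was 33.1% for Cdh23, 11.6% for Tmie, 9.21% for Lhfpl5 and 23.8% for Tmc2, higher than uncorrected. Mutant 1 then had 4.37 CPM of Pcdh15 and 12.9 CPM of Cdh23. The source of either balance was not tested. Both corrections were chosen after the data had been seen, and with each 0 of the 7 genes were called.

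**Figure D5:**
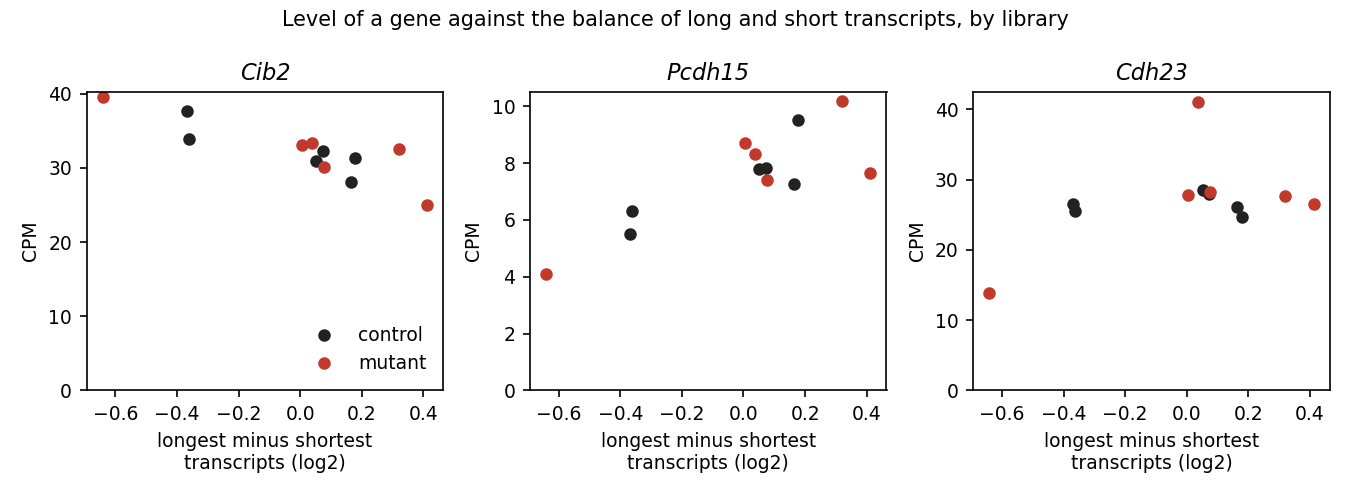
CPM of Cib2, Pcdh15 and Cdh23 in each library against the balance of long and short transcripts in that library, given as the median log2 deviation of the longest bin of transcripts minus that of the shortest. Cib2 is highest and Pcdh15 lowest in mutant 1, the library at -0.64, and the Cdh23 value of 41.1 CPM lies near the middle of the axis.

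Next, 13 further genes that hair cells use for transduction or to build the bundle were examined. In this list 0 of 13 had an adjusted p under 0.05 by edgeR and by limma-voom, beside 0.19% and 0.103% of all genes tested, and DESeq2 called 1, beside 3.35%. At an unadjusted p under 0.05 edgeR gave 1 gene higher, beside 6.52% of all genes tested, and 1 lower, beside 4.04%. The median log2 fold change of the list was 0.09, and 8 of 13 were above 0.

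Ush1c encodes harmonin, the scaffold that anchors CDH23 at the upper end of the tip link, and it stood nearest to the threshold. Controls had 54.1, 64.2 and 74.96 CPM (lowest, median and highest) and mutants 44.5, 47.4 and 56.2 CPM. None of the 6 mutants lay above the control median, and the groups overlapped only through control 4, the lowest control, which lay below mutants 4 and 5. The log2 fold change was -0.37 ± 0.09 (SE, n = 6 per genotype), with an interval from -0.56 to -0.18. The adjusted p was 0.0903 by edgeR and 0.138 by limma-voom, and 0.00603 by DESeq2, so that the call depends on the tool. By edgeR it was 0.0359 without mutant 5, the 1 library whose removal brought it under 0.05, and the log2 fold change was then -0.41. Without mutant 5 the number of genes called over all was 356, beside 35 with all libraries. Without mutant 4 the log2 fold change of Ush1c was also -0.41, with an adjusted p of 0.0751 by edgeR. The exact two-sided permutation test gave p = 0.00866, where 0.00216 is the smallest p that 6 mice against 6 allow. Cdh23, the binding partner of harmonin, had a log2 fold change of 0.05.

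Clrn1, which encodes the bundle protein clarin-1, had 3.58 to 5.06 CPM in controls and 4.43 to 7.45 CPM in mutants, with 5 of 6 mutants above the control median. Its log2 fold change was 0.41 ± 0.13 (SE, n = 6 per genotype; edgeR, adjusted p = 0.201). Piezo1, a mechanosensitive channel found in many cell types, differed by -0.19 on the log2 scale (edgeR, adjusted p = 0.484), and Grxcr1, a bundle protein, by 0.24 (edgeR, adjusted p = 0.724). Neither of the latter passed an unadjusted p under 0.05.

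Relatives of the 7 genes were examined to see whether another family member changed. Of 14 paralogs in the TMC, LHFPL and CIB families, 13 were tested, and Cib4 was not, for its low counts. Of these, 0 of 13 had an adjusted p under 0.05 by edgeR and by limma-voom, beside 0.19% and 0.103% of all genes tested, and DESeq2 called 1, Lhfpl4, beside 3.35%. At an unadjusted p under 0.05 edgeR gave 3, all higher in mutants, beside 6.52%. The median log2 fold change of the list was 0.01. The 3 genes were Lhfpl4, Lhfpl3 and Tmc7, and the values of the list ran from -0.34 to 2.20.

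Lhfpl4 encodes a protein of inhibitory synapses in neurons. It had 2.90 to 5.99 CPM in controls, with a median of 3.73 CPM, and 4.81 to 60.4 CPM in mutants, with a median of 11.3 CPM. Its log2 fold change was 2.20 ± 0.61 (SE, n = 6 per genotype), with an adjusted p of 0.144 by edgeR, 0.315 by limma-voom and 0.0101 by DESeq2. Without mutant 4 the edgeR log2 fold change was 1.301 (adjusted p = 0.0987), so its size rests in large part on that library, and limma-voom gave 1.64 with all 12. The highest value, 60.4 CPM, was in mutant 4, which also had the highest score of the 12 neuron markers, 6.12 (mean log2 CPM) beside 1.37 to 3.46 in controls. Lhfpl3 had 0.0312 to 1.497 CPM in controls and 0.191 to 3.25 CPM in mutants (log2 fold change 1.998; edgeR, adjusted p = 0.329). Tmc7 had 6.33 to 9.96 CPM in controls and 8.45 to 16.2 CPM in mutants (log2 fold change 0.47; edgeR, adjusted p = 0.201). Whether these values follow the neuron or Schwann cell markers was not tested. Cib1, the fourth of the list by unadjusted p, differed by -0.13 on the log2 scale (edgeR, adjusted p = 0.732).

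Last, the genes most like the 7 from mouse to mouse were found among 14186 genes of a mean count of 50 or more, by Pearson's r of log2 CPM over the 12 libraries after the mean of each genotype was subtracted. The mean of the 7 was most like Gstcd (r = 0.96), Cep126, Sh2d4b, Tmem72 and Maml2 (r = 0.94). For Tmc1 the nearest were Sall1 (r = 0.94) and Pou4f3 (r = 0.92), the latter a transcription factor of hair cells and one of the 12 hair cell markers. Tmc2 was nearest to Dsg2 (r = 0.97) and Cpt1a (r = 0.93), and Tmie to Esco2 (r = 0.94) and Trim63 (r = 0.91). Lhfpl5 had the weakest neighbours, Mia and 8430429K09Rik (r = 0.82 for both). Cib2 was nearest to Stard10 (r = 0.97) and Erp29 (r = 0.96), Pcdh15 to Spata13 (r = 0.98) and Rragd (r = 0.97), and Cdh23 to Bend7 (r = 0.95) and Scnn1g (r = 0.94). Each is the highest of 14186 values over 12 libraries that share their depth and composition, and they are given as a description.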

How the data were processed

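RNA from cochlear tissue of 12 pups (6 per genotype) was sequenced as single-end reads of 100 nt. The table that the authors deposited holds whole-number read counts by gene symbol with a column for each library; they were neither normalized nor pooled. Per the submitters' processing notes, Trimmomatic 0.32, STAR 2.4.2a, HTSeq 0.9.1 and GRCm38.p4 were used; the annotation and the strand setting are not given in the sources used here. The authors' table of a DESeq2 1.10.1 comparison holds fold changes and p-values and was not used.

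Genes whose counts averaged 5 or more were compared in edgeR 4.0.16 by its quasi-likelihood test (R 4.3.3; TMM, robust, no covariates, all 12 libraries), with Benjamini-Hochberg adjustment over all genes tested. Single genes and ratios were compared by exact two-sided permutation of log2(CPM + 0.1). DESeq2 1.42.0, limma 3.58.1 and other settings were alternatives. The fits were tested on simulated data. Those counts varied independently from gene to gene, so they cannot show how the fits handle variation that genes of a library share. Total counts were 28498549 to 36134983. No libraries of the same genotype agreed within sampling noise (chi-square per degree of freedom of at least 16.8 in 30 pairs). Litters are not named in the labels, and p-values measure the spread between these libraries. Lengths are from GENCODE M21, in which 94.7% of the symbols matched.

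The genes and lists were chosen with earlier results of these data known. All 7 genes were named, with the 4 partners and the 4 paralogs of smallest unadjusted p, any with an adjusted p under 0.05, and the genes of highest likeness (5 for the mean, 2 for each gene). Besides the lists in the report, 8 supporting cell markers (1 with an unadjusted p under 0.05, lower) and 8 macrophage markers (4, all lower) were examined, beside 4.04% of all genes tested, and 0 were called, beside 0.19%.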

Additional observations from a re-analysis of the deposited data

Results flagged for a closer look

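Of 38 groups of 6 mice examined for a value set apart from the rest by Dixon's test, 3 held one, where about 5% of groups would by chance. None of the 3 is a gene of the complex itself. The paralog Lhfpl4 had 60.4 CPM in mutant 4, beside 4.81 to 15.9 CPM in the other mutants. The paralog Tmc7 had 16.2 CPM in mutant 2, beside 8.45 to 11.1 CPM in the others. Piezo1 had 60.7 CPM in mutant 1, the library with the least of long transcripts, beside 76.4 to 85.8 CPM in the others.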

How the results depend on the processing

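None of the 7 genes was called under any of 23 alternatives, of which 12 left out 1 library each, and the smallest adjusted p was 0.304 (Tmie, with the hair cell marker score as a covariate). The sign held in 140 of 161 fits. It changed for Cdh23 with limma-voom (-0.0124), the replicate block (-0.0096) and the length correction (-0.0185), and for Cib2 at a mean count of at least 20 (0.0015), with the hair cell score (0.0054) and with the length (0.0227) and GC (0.0260) corrections. With neuron and Schwann cell scores as covariates it was 0.25 for Tmc1, -0.32 for Tmc2 and 0.11 for Cib2, and Cdh23 kept its sign at 0.38, the highest of the 161. The length and GC corrections, and leaving out libraries for the named partners and paralogs, were chosen after seeing the data. Leaving out 1 library gave -0.0585 to 0.276 for Tmc2, -0.0423 to 0.0581 for Lhfpl5, -0.0689 to 0.0603 for Cib2, -0.0261 to 0.199 for Pcdh15, -0.10 to 0.19 for Cdh23 and -0.22 to -0.003 for Tmc1, and -0.149 to 0.0269 for the log2 ratio of Cdh23 to Pcdh15, which turned positive without control 4 (0.0269) or mutant 4 (0.0232). The ratio of Tmc1 to Tmc2 stayed negative, at -0.50 to -0.03. Over all genes the number called was 35, and 619 with DESeq2, 19 with limma-voom, 57 without the filter, 131 with the replicate block, 1 with the neuron and Schwann cell scores, and 14 (without control 2 or control 6) to 356 (without mutant 5) with 1 library left out; the cause was not tested. Whether replicate numbers pair the mice could not be settled from so few pairs. Of same-numbered pairs, 3 of 6 had r over 0.1 (-0.29 to 0.46), and 2 of 6 controls were most like the mutant of their own number. Depth limits Tmc2 most, at 7 to 32 counts per library.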
